A study of Arabidopsis thaliana with 3 samples.

Results

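The genes described here are 10 Arabidopsis thaliana members of the WRKY family of plant transcription factors that are tied to stress responses. They were taken by gene identifier from a fixed list, and all 10 were present among the 33557 genes of both expression tables. In the order of the list they are WRKY40 (AT1G80840), WRKY18 (AT4G31800), WRKY60 (AT2G25000), WRKY33 (AT2G38470), WRKY25 (AT2G30250), WRKY46 (AT2G46400), WRKY53 (AT4G23810), WRKY70 (AT3G56400), WRKY6 (AT1G62300) and WRKY75 (AT5G13080). The annotation names 62 other WRKY genes, which were also all in the tables.

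RNA of whole seedlings, 11 days old, was sequenced in 3 groups. The group WT-0 is wild type held in liquid MS, a standard plant growth medium, WT-S is wild type held for 4 h in that medium with 200 mM NaCl, and skip-S is the skip mutant under the same salt treatment. SKIP is a component of the spliceosome that also acts in transcription, and the labels give neither the skip allele nor the accession of the wild type. For every gene and group the submitters deposited a single value that merges 2 replicates. Differences therefore come without a replicate error and without p-values. An untreated skip group was not analysed here.

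WRKY proteins bind DNA through a domain that starts with the amino acids for which the family is named, and the DNA element they recognise is called the W-box. Many WRKY genes carry W-boxes in their own promoters and are controlled by themselves and by each other. Their transcripts are induced within hours by pathogens, wounding, abscisic acid (ABA, the hormone of drought and salt stress) and salicylic acid (SA, a defence hormone), and their proteins are targets of mitogen-activated protein kinases. The family is divided into classes by the number of domains and the type of zinc finger. WRKY40, WRKY18 and WRKY60 make up class IIa, WRKY33 and WRKY25 belong to class I, WRKY46, WRKY53 and WRKY70 to class III, WRKY6 to class IIb and WRKY75 to class IIc.

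Members of class IIa share a group of closely spaced W-boxes, which is shown first because their transcripts then differed in their response to salt. The stretches below lie upstream of the annotated gene starts on the + strand of RefSeq assembly TAIR10.1, at chr1:30382724-30382783 for WRKY40, chr4:15382022-15382081 for WRKY18 and chr2:10629005-10629064 for WRKY60. Each is 60 bases long and read 5′ to 3′ along the gene, and capitals mark TTGACC or TTGACT on either strand, so that GGTCAA and AGTCAA are matches on the other strand.
WRKY40: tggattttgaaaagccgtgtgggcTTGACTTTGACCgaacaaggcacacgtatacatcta
WRKY18: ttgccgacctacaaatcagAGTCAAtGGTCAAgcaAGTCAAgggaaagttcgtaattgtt
WRKY60: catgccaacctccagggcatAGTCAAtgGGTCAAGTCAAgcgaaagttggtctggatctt
WRKY40 holds 2 W-boxes between bases -813 and -802 from its start. WRKY18 holds 3 between -736 and -715, and WRKY60 holds 3 between -637 and -619, where 2 of the boxes overlap by 1 base. Of 26686 promoters of nuclear protein-coding genes, 19 (0.0712%) had at least 3 such boxes within 25 bases of each other in the 1000 bases before the start, and WRKY18 and WRKY60 are among these 19. At least 2 boxes within 25 bases occurred in 1040 promoters (3.90%), among them those of all 3 class IIa genes and of 5 of the 62 other WRKY genes. This feature was noticed in the sequences and then counted, and a match does not show binding.

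WRKY33 and WRKY53 carry W-boxes close to the start, and their 250 upstream bases are shown because no other member had as many in that window. The WRKY33 window is chr2:16107985-16108234 on the + strand and the WRKY53 window chr4:12393983-12394232 on the - strand, both in TAIR10.1 and written along the gene with W-boxes of either strand in capitals.
WRKY33: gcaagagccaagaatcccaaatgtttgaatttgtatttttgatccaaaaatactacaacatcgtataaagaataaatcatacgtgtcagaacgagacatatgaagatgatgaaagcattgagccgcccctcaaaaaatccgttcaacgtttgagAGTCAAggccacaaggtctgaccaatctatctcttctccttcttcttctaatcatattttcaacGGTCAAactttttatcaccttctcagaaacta
WRKY53: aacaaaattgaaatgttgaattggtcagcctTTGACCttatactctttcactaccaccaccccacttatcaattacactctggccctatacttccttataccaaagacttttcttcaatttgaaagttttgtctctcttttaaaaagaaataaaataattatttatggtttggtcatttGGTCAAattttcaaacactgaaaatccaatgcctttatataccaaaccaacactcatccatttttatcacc
Both windows hold 2 W-boxes, and 6.21% of all promoters hold at least 2 in 250 bases. WRKY25 and WRKY75 hold 1 each there, and the other 6 members none. These 4 of 10 stand beside 28.5% of all promoters and 33.9% of the other WRKY genes with at least 1.

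Over 1000 upstream bases, 9 of the 10 members held a W-box, against 67.3% of all promoters and 48 of the 62 other WRKY genes (77.4%). The exception was WRKY70. The shorter core TTGAC, which both W-box forms contain, occurred in all 10, but also in 88.2% of all promoters. The core ACGTG of the ABA element was found in 6 of 10 against 54.5% of all promoters and 44 of the 62 other WRKY genes (70.97%), and the drought element GCCGAC in WRKY18 alone, against 8.66%. All motifs were searched on both strands.

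**Figure D1:**
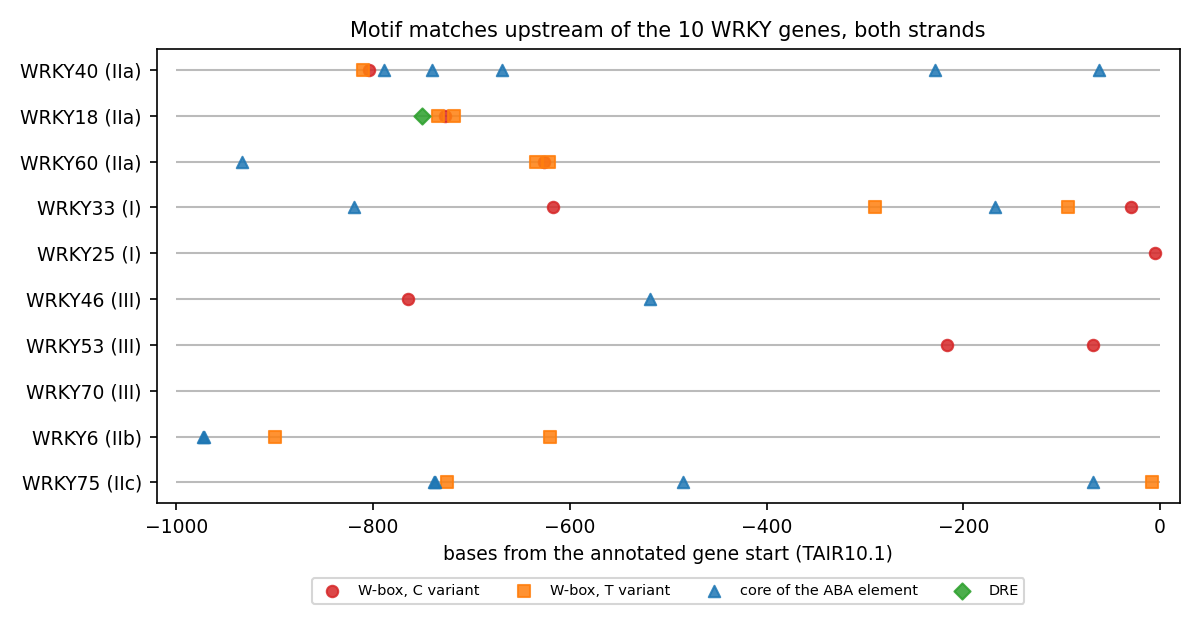
Positions of motif matches in the 1000 bases before the annotated start of each gene (x axis, bases from the start; WRKY class in brackets), on both strands, where W-box C and T variants are TTGACC and TTGACT, the ABA element core is ACGTG and DRE is GCCGAC. WRKY40, WRKY18 and WRKY60 show clustered W-boxes between -813 and -619, and WRKY70 has no match of these 4 motifs.

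The values are read as FPKM, a measure of abundance per transcript length and sequencing depth, and salt-treated wild type stands in both tables on scales that differ by a factor of 1.105. Ratios were therefore formed within a table, as log2 ratios of FPKM + 1, and a gene is called higher or lower at a 2-fold ratio, which is a rule of size and not a test. An estimate of depth from the steps between low values put the members' values on about 72.5 to 961 fragments in WT-0 and at least 290.4 in the other columns, which bears on counting error alone. The SKIP gene had 39.2 and 54.2 FPKM in WT-0 and WT-S, and 49.04 and 41.6 FPKM in WT-S and skip-S. The 3 shoot marker genes were between 2015 and 12449 FPKM in all columns, with log2 ratios of -0.83 to -0.0011 for salt and -0.89 to 0.38 for skip. The 4 root marker genes were present but all at least 2-fold lower with salt (log2 ratios of -3.64 to -1.88) and within 2-fold in skip. In whole seedlings, fewer cells of a type and less RNA per cell cannot be told apart, and the part of root and shoot in the results below was not tested.

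The first comparison asks how the members stood in wild type after salt. With salt, 8 of the 10 members were at least 2-fold higher, 0 were lower, and WRKY60 and WRKY70 were within 2-fold. Of all 33557 genes, 6.04% were higher by this rule, 3.81% lower and 9.85% either. The 2027 higher and 1277 lower genes were all among the 25550 above 0 FPKM in a group, so the shares there are larger. The median log2 ratio of the members was 2.35, against 0.20 for the other WRKY genes and 0.00 for all genes. Since the list was drawn up as stress WRKY genes with these results known, the count describes the members and tests nothing.

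In class IIa, WRKY40 and WRKY18 were higher with salt and WRKY60 was not. The 3 proteins bind each other and act mostly as repressors, of defence genes and of ABA-responsive genes such as ABI5. WRKY40 was at 2.24 FPKM in WT-0 and 112 FPKM in WT-S, a log2 ratio of 5.12 (34.8-fold) that only 19 of all 33557 genes exceeded. WRKY18 was at 7.60 and 54.3 FPKM, a log2 ratio of 2.69 (6.43-fold). WRKY60 was at 5.62 and 6.03 FPKM, a log2 ratio of 0.09, which turned to -0.03 under upper-quartile scaling. Without salt WRKY18 thus had the highest level of this class and WRKY40 the lowest, and with salt WRKY40 had the highest, 18.5 times that of WRKY60.

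Both class I members were higher with salt. WRKY33 is required for resistance to fungi that kill their host and for synthesis of the defence compound camalexin, and it acts with WRKY25 in salt tolerance. WRKY33 was at 8.96 FPKM in WT-0 and 156 FPKM in WT-S, a log2 ratio of 3.98 (15.8-fold). It had the largest gain of the 10 in FPKM, 147, and ranked 18th of the 72 WRKY genes by level without salt and 1st with it. WRKY25 was at 6.09 and 29.9 FPKM, a log2 ratio of 2.12 (4.36-fold).

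The class III members went apart. WRKY46, which acts in guard cells and in drought responses, was at 2.04 FPKM in WT-0 and 33.7 FPKM in WT-S, a log2 ratio of 3.51 (11.4-fold). WRKY53, a regulator of leaf senescence, was at 2.07 and 9.78 FPKM, a log2 ratio of 1.81 (3.52-fold), the smallest among those past the rule. WRKY70 was at 13.5 FPKM in WT-0, the highest of the 10, and at 6.56 FPKM in WT-S. WRKY70 raises SA-dependent and lowers jasmonate-dependent defence, and with its close relative WRKY54 it holds back senescence. Its log2 ratio of -0.94 lay just outside the rule and was the only one below 0 among the members. It passed the rule with a pseudocount of 0.1 (-1.03) and under upper-quartile scaling (-1.06).

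WRKY6 and WRKY75 both act in senescence and in the response to phosphate. WRKY6, which represses the phosphate exporter gene PHO1, was at 11.3 FPKM in WT-0 and 57.5 FPKM in WT-S, a log2 ratio of 2.25 (4.76-fold). WRKY75, which is induced when phosphate is short and limits root hairs, was at 2.61 and 18.8 FPKM, a log2 ratio of 2.45 (5.48-fold). Both were higher with salt and the root markers lower, and the part of root tissue in these values was not tested.

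**Figure D2:**
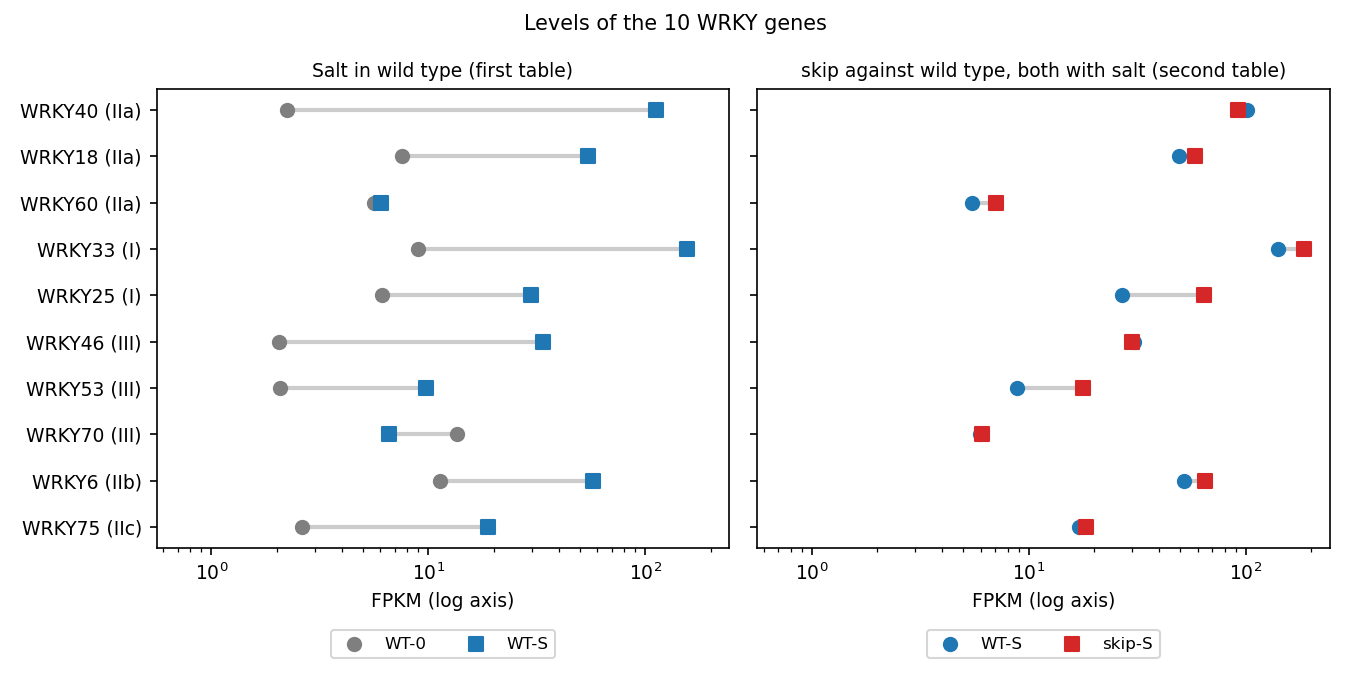
Level of each of the 10 genes as FPKM on a log axis, with 1 deposited value per group and gene: WT-0 (grey) and WT-S (blue) in the first table, WT-S (blue) and skip-S (red) in the second. The order of levels in WT-0, led by WRKY70 at 13.5 FPKM, was replaced in WT-S by one led by WRKY33 at 156 FPKM.

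The levels of the members spread out with salt. In WT-0 they lay between 2.04 and 13.5 FPKM with a median of 5.86, and in WT-S between 6.03 and 156 FPKM with a median of 31.8. Without salt the order from the top was WRKY70, WRKY6, WRKY33, WRKY18, WRKY25, WRKY60, WRKY75, WRKY40, WRKY53 and WRKY46. With salt it was WRKY33, WRKY40, WRKY6, WRKY18, WRKY46, WRKY25, WRKY75, WRKY53, WRKY70 and WRKY60. With 1 value per group, neighbours in either order cannot be shown to differ. The 10 genes made up 14.2% of the summed FPKM of the 72 WRKY genes in WT-0 and 43.7% in WT-S, while the family's sum was 438 and 1109 FPKM.

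The second comparison asks how the members differed between skip and wild type when both had salt. It cannot separate a different response to salt from a difference present without it. Only WRKY25 was at least 2-fold higher in skip, 0 members were lower, and 9 were within 2-fold. Of all 33557 genes, 1.63% were higher by this rule, 2.61% lower and 4.24% either, and 1 member of 10 is too few to describe the members as a group. Of the 10 ratios 8 lay above 0, against 26 of the 62 other WRKY genes and 11000 of 25632 genes above 0 FPKM in a group. The median was 0.28 for the members, -0.04 for the other WRKY genes and -0.04 for those 25632 genes. Over all 33557 genes, which include genes at 0 in both columns, it was 0.00.

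WRKY25 was at 27.05 FPKM in WT-S and 64.6 FPKM in skip-S, a log2 ratio of 1.22 (2.34-fold). Its class I relative WRKY33 was at 141 and 185 FPKM, a log2 ratio of 0.39. WRKY33 thus had the higher level of the pair in every column, and WRKY25 the higher ratio in skip. The difference between their ratios could not be tested with 1 value per group.

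WRKY53 came next, at 8.85 FPKM in WT-S and 17.9 FPKM in skip-S, a log2 ratio of 0.94 just outside the rule. It passed the rule with a pseudocount of 0.1 (1.01), after centring on the median gene (1.001) and under upper-quartile scaling (1.02). The other class III members were close to level. WRKY46 was at 30.5 and 29.8 FPKM (log2 ratio -0.03, or 0.05 under upper-quartile scaling), and WRKY70 at 5.94 and 6.09 FPKM (0.03).

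WRKY53 overlaps the locus AT4G23800 on the opposite strand by 341 bases. Of the 50-base stretches of the WRKY53 transcript, 18.02% occur in other annotated loci, most often in AT4G23800. No source used here gives the strand setting of the counting, so reads of the pair cannot be told apart in the overlap. AT4G23800 was at 61.6 and 30.9 FPKM in WT-0 and WT-S, a log2 ratio of -0.98, and at 27.9 and 33.7 FPKM in WT-S and skip-S, a log2 ratio of 0.26. Of the other members, WRKY40 shared 2.43% of its stretches with other loci, most often with AT3G32090, which does not overlap it. The remaining 8 shared 0%. WRKY33 overlaps opposite-strand loci as well, AT2G08965 by 272 bases and AT2G38480 by 26, and WRKY40 overlaps AT1G80850 by 51. AT2G08965 is not among the genes with deposited values, and none of the 50-base stretches of the WRKY33 transcript occur in it. Within the 26 and 51 bases the strand limit holds as for WRKY53. AT2G38480 and AT1G80850 were at 4.88 to 7.32 FPKM in all columns.

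In class IIa, WRKY40 was at 101 FPKM in WT-S and 92.4 FPKM in skip-S, a log2 ratio of -0.13, the lowest of the 10. WRKY18 was at 49.2 and 58.6 FPKM (0.25) and WRKY60 at 5.46 and 7.07 FPKM (0.32). None of the 3 neared the rule. WRKY6 was at 52.0 and 65.2 FPKM (0.32), and WRKY75 at 16.999 and 18.3 FPKM (0.10). The order of levels in skip-S was WRKY33, WRKY40, WRKY6, WRKY25, WRKY18, WRKY46, WRKY75, WRKY53, WRKY60 and WRKY70, and the members held 47.8% of the family's summed FPKM, against 43.7% in WT-S of the same table.

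**Figure D3:**
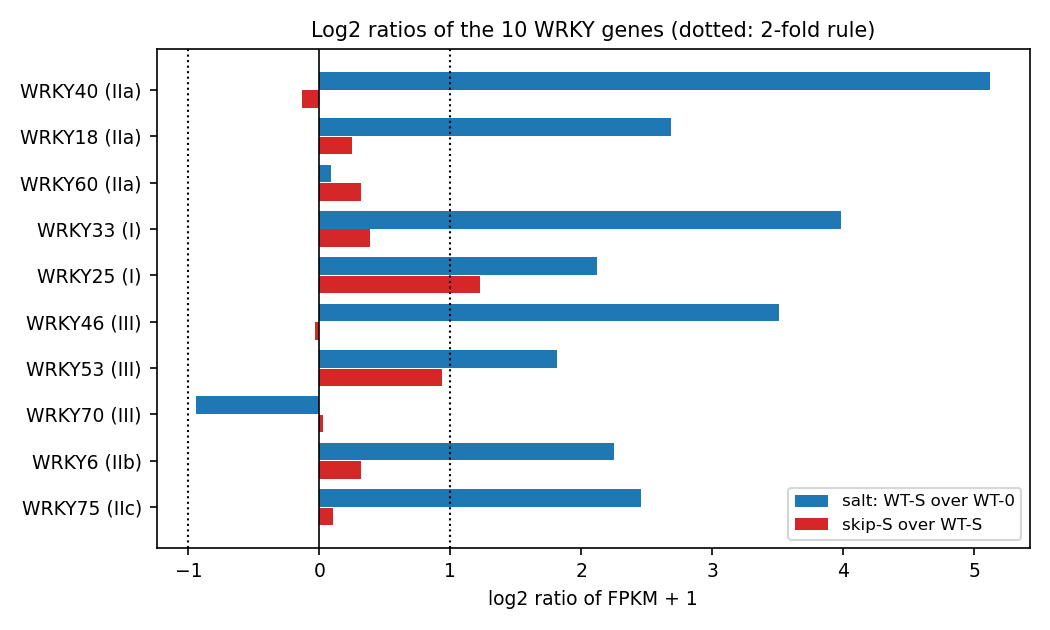
Log2 ratio of FPKM + 1 of each gene for salt in wild type (blue) and for skip against wild type with salt (red), from 1 value per group; dotted lines mark the 2-fold rule. Salt ratios run from -0.94 (WRKY70) to 5.12 (WRKY40), and skip ratios from -0.13 (WRKY40) to 1.22 (WRKY25).

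Both comparisons use WT-S, once as numerator and once as denominator, so their ratios are not independent. When skip-S is multiplied by 1.105 to bring it to the scale of the first table, WRKY33 stood at 204 FPKM, WRKY40 at 102, WRKY25 at 71.3 and WRKY53 at 19.8 FPKM. Against WT-0 on that joined scale, the log2 ratios were 4.37, 4.99, 3.35 and 2.76. All 8 members that were higher with salt in wild type were also more than 2-fold above WT-0 in skip-S. They ran from 5.88-fold for WRKY75 to 31.8-fold for WRKY40, whereas WRKY60 was at 1.33-fold and WRKY70 at 0.533-fold. These values largely follow from the salt and skip ratios above, and no share over all genes was computed on the joined scale. Without an untreated skip group they do not measure the response of skip to salt.

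In gene structure, the members have 2 to 6 exons in their longest annotated transcript, with 5 in WRKY25 and 2 in WRKY53. Their coding lengths are 438 to 1662 nt. Splicing cannot be read from these values, which sum over a gene's transcripts.

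Across the rest of the family, 12 of the 62 other WRKY genes were at least 2-fold higher with salt, against 6.04% of all genes. Another 3 were lower, against 3.81% of all genes, and 47 were within 2-fold. The highest were WRKY30, from 0.310 to 21.9 FPKM (log2 ratio 4.13), WRKY38, from 0.371 to 20.3 FPKM (3.96), and WRKY51, from 0.861 to 18.7 FPKM (3.40). WRKY38 is a repressor of basal defence and WRKY51 acts in the SA-dependent repression of jasmonate signalling. The 3 lower genes were WRKY24 (-1.48), WRKY56 (-1.23) and WRKY9 (-1.20), and none of them passed the rule with a pseudocount of 5. By these ratios WRKY30 and WRKY38 lay above WRKY46 and close to WRKY33, outside the list of 10. Both were below 1 FPKM in WT-0, where the pseudocount of 1 shrinks a ratio more than at the level of WRKY33. Their closeness to WRKY33 therefore depends on the pseudocount.

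By class, and with no test between classes, 2 of 12 genes of class I were higher with salt, and these were WRKY33 and WRKY25. In class III, 5 of 13 were higher, in class IIc 6 of 18 with 2 lower, in class IId 2 of 7, and in class IIe 1 of 7. In class IIb 1 of 8 was higher, which was WRKY6, and 1 was lower. Another 4 genes were given no class in the grouping used here, and 1 of these was higher. In skip against wild type, 1 of the 62 other WRKY genes was higher, 2 were lower and 59 were within 2-fold. By the same rule, 1.63% of all genes were higher in skip and 2.61% lower. WRKY57, which is known for drought tolerance, was at 18.4 FPKM in WT-S and 39.6 FPKM in skip-S (1.07). WRKY38 was at 18.4 and 6.24 FPKM (-1.42) and WRKY51 at 16.9 and 7.54 FPKM (-1.07). WRKY57 and WRKY51 were within 2-fold with a pseudocount of 5, and WRKY51 also under upper-quartile scaling.

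**Figure D4:**
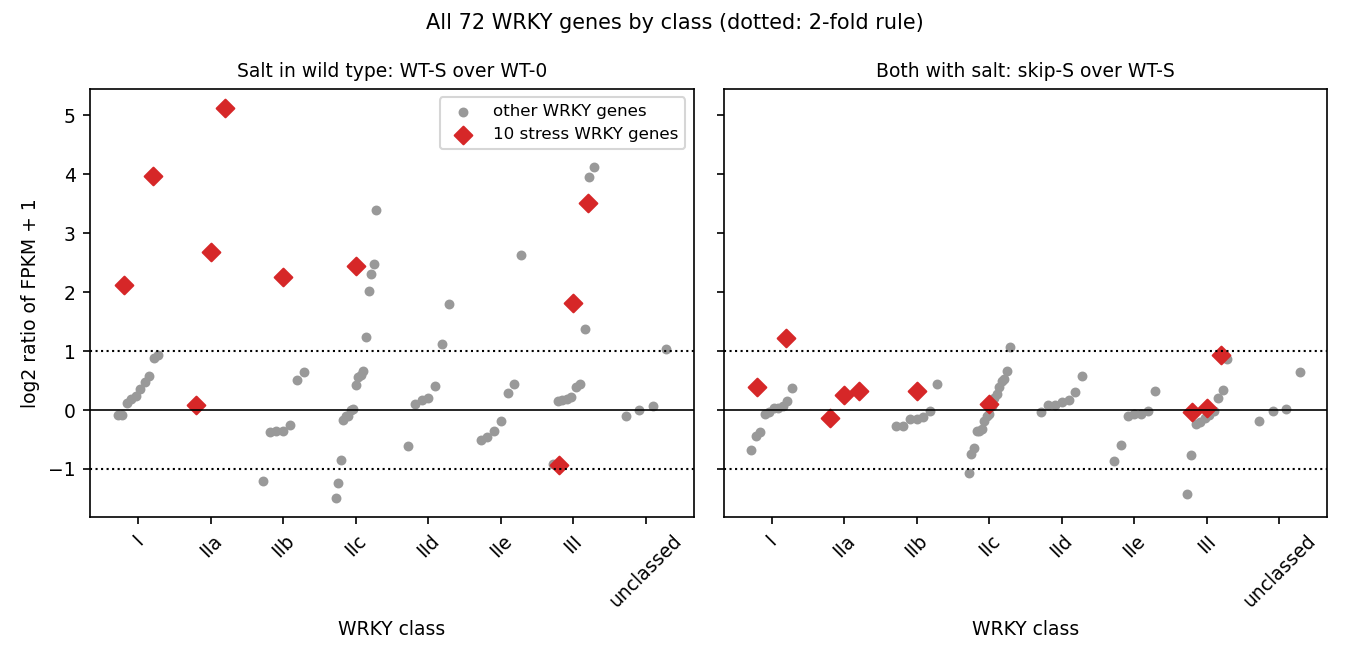
Log2 ratios of FPKM + 1 for all 72 WRKY genes by class, with the 10 stress WRKY genes as red diamonds and the other 62 as grey points, for salt (left) and skip (right); dotted lines mark the 2-fold rule. For salt, 8 of 10 diamonds and 12 of 62 grey points lie above the upper line, and for skip 1 and 1.

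For each member, the other WRKY gene with the most similar pair of ratios was looked up by Euclidean distance over the salt and skip log2 ratios, among 50 genes with at least 1 FPKM in a group. WRKY54 was closest to WRKY70, at a distance of 0.05, with ratios of -0.92 and -0.02. WRKY54 was at only 1.86 FPKM in WT-0 and 0.514 FPKM in WT-S. There the pseudocount of 1 shrinks a ratio more than at the level of WRKY70, so the small distance depends on it. WRKY28 was closest to WRKY75 (0.17) and WRKY18 (0.21), and WRKY49 to WRKY60 (0.20). WRKY49 was at 0.641 FPKM in WT-S and 1.32 FPKM in skip-S, so the same limit holds for it. WRKY48 was closest to WRKY6 (0.22), WRKY53 (0.64) and WRKY25 (0.72), and WRKY30 to WRKY33 (0.24), WRKY46 (0.66) and WRKY40 (1.05). WRKY28 and WRKY30 were at only 1.26 and 0.310 FPKM in WT-0, so their distances depend on the pseudocount as well. The measure rests on 3 groups and only orders the genes.

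Among 11 kinases and partner proteins that act on WRKY factors, 1 was at least 2-fold higher with salt and 1 in skip, and 0 were lower in either. With salt it was MKS1, a substrate of the kinase MPK4 that binds WRKY25 and WRKY33, at 3.64 FPKM in WT-0 and 19.2 FPKM in WT-S (log2 ratio 2.12). In skip it was SIB1, a protein that binds WRKY33 and enhances its activity, at 5.32 FPKM in WT-S and 13.9 FPKM in skip-S (1.24). Of the 50-base stretches of the MKS1 transcript, 20.3% occur in other annotated loci, most often in the overlapping AT3G18680. The 8 kinases were within 2-fold in both comparisons. MPK3, which phosphorylates WRKY33, was at 29.8 FPKM in WT-0 and 44.9 FPKM in WT-S (0.57), and at 40.6 FPKM in WT-S and 43.9 FPKM in skip-S (0.11). The medians of the list were 0.23 and -0.12. By the same rule, 6.04% of all genes were higher with salt and 1.63% in skip. A single gene of 11 is too few to describe the list.

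Of 19 genes that WRKY factors are known to bind or control, 7 were higher with salt, 1 was lower and 11 were within 2-fold. Their median was 0.46. By the same rule, 6.04% of all genes were higher with salt and 3.81% lower. RRTF1 was at 0.350 and 118 FPKM (6.46), the senescence gene SAG13 at 2.95 and 40.4 FPKM (3.39) and MYB2 at 0.341 and 11.7 FPKM (3.24). Of the 50-base stretches of the RRTF1 transcript, 59.2% occur in other annotated loci, most often in AT4G08985, which overlaps it on the opposite strand. The lower gene was the phosphate transporter PHT1;1, which is also one of the root markers, at 42.4 and 5.83 FPKM (-2.67). Of the 50-base stretches of its transcript, 42.4% occur in other loci, most often in AT5G43370, which does not overlap it. PHO1, which WRKY6 represses, was at 24.3 and 15.5 FPKM (-0.62). ABI5, which class IIa proteins repress, was at 0.885 and 11.9 FPKM (2.77), and ABI4 was listed at 0 in all columns.

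In skip, the median of these 19 genes was 0.23. Of the 19, 1 passed the rule upward and 0 downward, against 1.63% and 2.61% of all genes. It was PAD3, the enzyme of the last step of camalexin synthesis and a target of WRKY33, at 6.0005 FPKM in WT-S and 25.7 FPKM in skip-S (1.93). With salt in wild type PAD3 had been within 2-fold, at 4.34 and 6.63 FPKM (0.51). CYP71A13, an earlier enzyme of the same pathway, was at 2.24 FPKM in WT-S and 3.81 FPKM in skip-S (0.57). Of the 50-base stretches of its transcript, 20.3% occur in other annotated loci, most often in AT2G30766, which overlaps it on the opposite strand.

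Of 10 markers of the SA response and of senescence, 3 were higher with salt, 1 was lower and 6 were within 2-fold, with a median of -0.03. The higher ones were the glutaredoxin gene GRX480, at 3.47 and 193 FPKM (5.44), and the dark- and senescence-induced genes DIN2, at 1.38 and 21.4 FPKM (3.23), and SEN1, at 4.29 and 11.2 FPKM (1.20). PR5 was lower, at 10.13 and 3.59 FPKM (-1.28). By the same rule, 6.04% of all genes were higher with salt and 3.81% lower. In skip, the median of the 10 markers was -0.38. Of the 10, 2 passed the rule upward and 0 downward, against 1.63% and 2.61% of all genes. These were PR1, at 0.391 FPKM in WT-S and 4.67 FPKM in skip-S (2.03), and PR2, at 2.35 and 6.14 FPKM (1.09). Only 4 of the 10 markers had a ratio above 0 in skip, and the lowest ratio was -0.94. WRKY70, which promotes SA-dependent PR expression, had a ratio of 0.03, and a link between WRKY70 and these markers was not tested.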

How the data were processed

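Each deposited value was read as FPKM, since the tables state no unit and Cufflinks is named; TopHat, Cufflinks and TAIR10 are named, without versions, per the submitters' processing notes. The 2 replicates of a group are merged per the labels, by steps that no source used here gives. All 4 value columns were used and columns were read by their names (WT-o as WT-0). Salt-treated wild type differed between tables by a factor of 1.105, within 0.1% for 24822 of 24882 genes above 0. Python 3.11.15 with pandas 2.3.3 computed log2 ratios of FPKM + 1 (pseudocount 1), called at 2-fold with no test.

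The members and the 4 lists (the other WRKY genes and 40 pathway genes) were chosen with earlier results of these data known. All members were named, and of each list the 3 largest ratios past the rule per direction; PHO1, ABI4, ABI5, MPK3, CYP71A13 and the loci that overlap members were added after their values were seen. Names, exons and upstream sequence are those of RefSeq assembly TAIR10.1, where 32810 of 33557 identifiers were found. It differs in name from the authors' build, and no coordinates of the deposited tables were used. Depth was estimated from steps in low values of genes with 1 transcript; 55.1% to 72.3% of low values lay within 0.15 of a whole step, so reads were not recovered and no count test was run. Alternatives were pseudocounts of 0.1 and 5, centring, upper-quartile scaling, a 1 FPKM filter, and 1.5-fold and 4-fold rules.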

Additional observations from a re-analysis of the deposited data

How the results depend on the processing

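The same 8 members were higher with salt under every alternative except the 4-fold rule, where WRKY53 dropped out and 7 remained. The median of the members stayed between 1.80 and 2.57 for salt and between 0.22 and 0.36 for skip. With salt, 1 member (WRKY70) was lower with a pseudocount of 0.1, under upper-quartile scaling and at 1.5-fold. In skip, 2 members (WRKY25 and WRKY53) were higher with a pseudocount of 0.1, after centring, under upper-quartile scaling and at 1.5-fold, and 0 at 4-fold. Upper-quartile scaling moved the median gene to -0.12 for salt, and the salt ratios of the members moved down by about that much. Over all genes, the numbers higher and lower with salt were 3199 and 2432 with a pseudocount of 0.1, 1251 and 592 with 5, 3743 and 3267 at 1.5-fold, and 704 and 259 at 4-fold, against 2027 and 1277. Upper-quartile scaling gave 1757 and 1625, so that 52.0% of the genes called were higher against 61.3%. In skip they were 1241 and 2047, 252 and 294, 1512 and 2812, and 132 and 74 in the same order, against 548 and 875. Centring gave 632 and 748 (45.8% higher) and upper-quartile scaling 641 and 728 (46.8%), against 38.5%. Larger pseudocounts and thresholds lower these numbers by construction. For the other WRKY genes, a pseudocount of 0.1 gave 19 higher and 6 lower with salt and 3 and 7 in skip, a pseudocount of 5 gave 9 and 0 and then 0 and 1, and upper-quartile scaling 10 and 3 and then 1 and 1, against 12 and 3 and then 1 and 2. No paired analysis was possible because each group has a single merged value, and for the same reason no replicate could be left out.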
